A study of Homo sapiens with 108 samples.

Results

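The mRNAs described here encode the actins of non-muscle cells, proteins that bind actin, and light chains of the myosin that pulls on the filament. They are the cytoplasmic actins ACTB and ACTG1, the tropomyosins TPM1, TPM3 and TPM4, the myosin light chains MYL6, MYL12A and MYL12B, cofilin (CFL1) and profilin (PFN1). These 10 genes were taken from a list of names, and their reads were summed over the 3′ UTR intervals annotated to each gene, out of 19761 genes in the series. The genes were chosen by their names with earlier results of these libraries known, in part on the measured BRCA1 knockdown levels of MYL12A and TPM4. For that reason the BRCA1 arm is described by its values, with no p-value for these genes, and tests against NT are given for the other 7 arms.

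Actin monomers carry ATP, assemble into filaments and hydrolyse the nucleotide as the filament ages. Profilin loads monomers with ATP and feeds the growing end, cofilin cuts and disassembles old filament, and tropomyosins run along the groove of the filament and set which motors and severing proteins reach it. Non-muscle myosin II pulls on these filaments, with MYL6 as its essential light chain and MYL12A and MYL12B as regulatory light chains whose phosphorylation switches the motor on. Transcription of many of these genes is driven by serum response factor (SRF), whose coactivators of the MRTF family are held back by free actin monomer, so that the filament state feeds back on the genes for its own parts.

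All libraries came from HEK293T, a human embryonic kidney cell line that carries the SV40 large T antigen. Cells were transduced with a lentiviral short hairpin RNA, selected with puromycin and labelled with 4-thiouridine (4SU, 10 µM) for 24 h, and fresh medium with 1 mM uridine then diluted out the label over a chase of 0, 2, 4 or 8 h. The knockdown arms carried a hairpin against 1 gene each, namely MAZ, ZMAT3, ZMAT5, PHF7, ZNF706, ZFP36L1, CNOT4 and BRCA1, and the control arm carried a non-targeting hairpin (NT). Each of the 36 combinations of arm and chase time had 3 biological replicates, which makes 108 libraries, 12 in each arm. Every arm, NT included, shared the transduction, puromycin, 4SU and uridine, and no library without 4SU was analysed here. Libraries were made with a 3′ end protocol after alkylation, which turns incorporated 4SU into a T-to-C change in the read.

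Depth ran between 63659 and 30750027 reads in 3′ UTRs, with a median of 14870063, and the shallowest was the PHF7 8 h replicate 3 library. Depth also differed by arm, with a median of 1.02e+07 reads in NT, 8.90e+06 in BRCA1, 4.53e+06 in CNOT4 and 6.16e+06 in the libraries labelled ZFP36L1. The medians of MAZ, PHF7, ZMAT3, ZMAT5 and ZNF706 were higher, between 1.71e+07 (ZMAT5) and 2.10e+07 (ZNF706). The part of depth in the differences from NT was not tested. The targeted mRNA averaged 10.5% to 53.9% of its NT level in the BRCA1, MAZ, PHF7, ZMAT3, ZMAT5 and ZNF706 arms. CNOT4 mRNA stood at 100.4% of NT in the CNOT4 arm, and ZFP36L1 mRNA at 173% of NT in the ZFP36L1 arm, so that arm is called the libraries labelled ZFP36L1. The CNOT4 libraries and those labelled ZFP36L1 also stood apart technically, with 25.9 to 34.0 T positions covered per read against 37.1 to 37.8 in NT, and with up to 11.9% and 12.4% of all reads mapped to several places against at most 6.91% in NT. Of 7 markers of this cell line, 6 averaged over 1 CPM (counts scaled to the reads in 3′ UTRs of the library), among them VIM at 831 and INA at 67.0, while PAX2 averaged 0.573. The defining genes of other cell types were at or near 0, for example DES (0.0252 CPM on average), MYOG (0 in every library), PTPRC (0.0162) and ALB (0.0994). The summed level of 6 fibroblast markers ran between 0 and 267 CPM in knockdown libraries and between 2.86 and 36.7 in NT, nearly all of it COL1A1, and its part in the results was not tested.

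The reads of these genes lay almost wholly in 1 interval each, at the 3′ end of the transcript. On hg38, the main ACTB interval spanned 740 bases of the 3′ UTR on chromosome 7 (5527152 to 5527891, minus strand) and held 99.8% of the NT reads of the gene, and the main ACTG1 interval spanned 721 bases on chromosome 17 (81509972 to 81510692, minus strand) with 99.7%. TPM1 was the exception, with 15 intervals on chromosome 15, of which the last (63071091 to 63071915, plus strand) held 71.1% of the NT reads. The hexamer AATAAA, or its variant ATTAAA, marks where an mRNA is cut and polyadenylated, and it was searched on the transcript strand in the last 60 bases of each interval with at least 2% of the NT reads of its gene. The sites below are shown because they end the intervals on which the actin, light chain and tropomyosin ratios rest, with the hexamer in capitals.
ACTB (chr7:5527156-5527185, minus strand): tgagaccagttgAATAAAagtgcacacctt
ACTG1 (chr17:81509976-81510005, minus strand): tgtgtaaggaaaAATAAAagtgctgccgta
MYL12A (chr18:3256204-3256233, plus strand): ttctgaatcataATTAAActttatgataaa
MYL12B (chr18:3278240-3278269, plus strand): atgttattttgaAATAAAgattatgctgac
TPM3 (chr1:154155310-154155339, minus strand): aaactggaagaaATTAAAgggtttttttta
TPM4 (chr19:16102970-16102999, plus strand): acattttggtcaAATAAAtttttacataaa
TPM1, last interval (chr15:63071872-63071901, plus strand): ataatgatatggAATAAAatgcacattgta
TPM1, interval with 7.97% of NT reads (chr15:63066138-63066167, plus strand): gtttcaacattgAATAAAactacaaagctg
The pairs of paralogues differed in sequence around the signal, and reads mapped to several places made up 0.426% of MYL12A and 0.00382% of MYL12B reads in NT. The CFL1 interval held neither hexamer in its last 60 bases. TPM3 reads were less certain, since 29.4% of them in NT mapped to several places, and counts of ACTB (0.770% in NT) became so in 2 arms described below. In the same 2 arms, CNOT4 and the libraries labelled ZFP36L1, 11.3% and 12.6% of TPM4 reads mapped to several places, against 0.774% in NT.

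SRF binds the CArG box, and 2 of the 16 RefSeq promoter windows of these genes (GRCh38.p14, 250 bases before to 50 after a start site) held one on either strand, against 1.29% of all 35116 windows. ACTB had no entry among these windows. The boxes are shown in capitals because ACTG1 and TPM4, the genes that hold them, differed from NT in different arms.
ACTG1 (chr17:81512874-81512903, minus strand): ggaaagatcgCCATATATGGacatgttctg
TPM4 (chr19:16067355-16067384, plus strand): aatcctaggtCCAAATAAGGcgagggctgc
The ACTG1 box began 94 bases before its start site and the TPM4 box 173 bases before. A match is a run of letters and not a measured binding site.

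**Figure D1:**
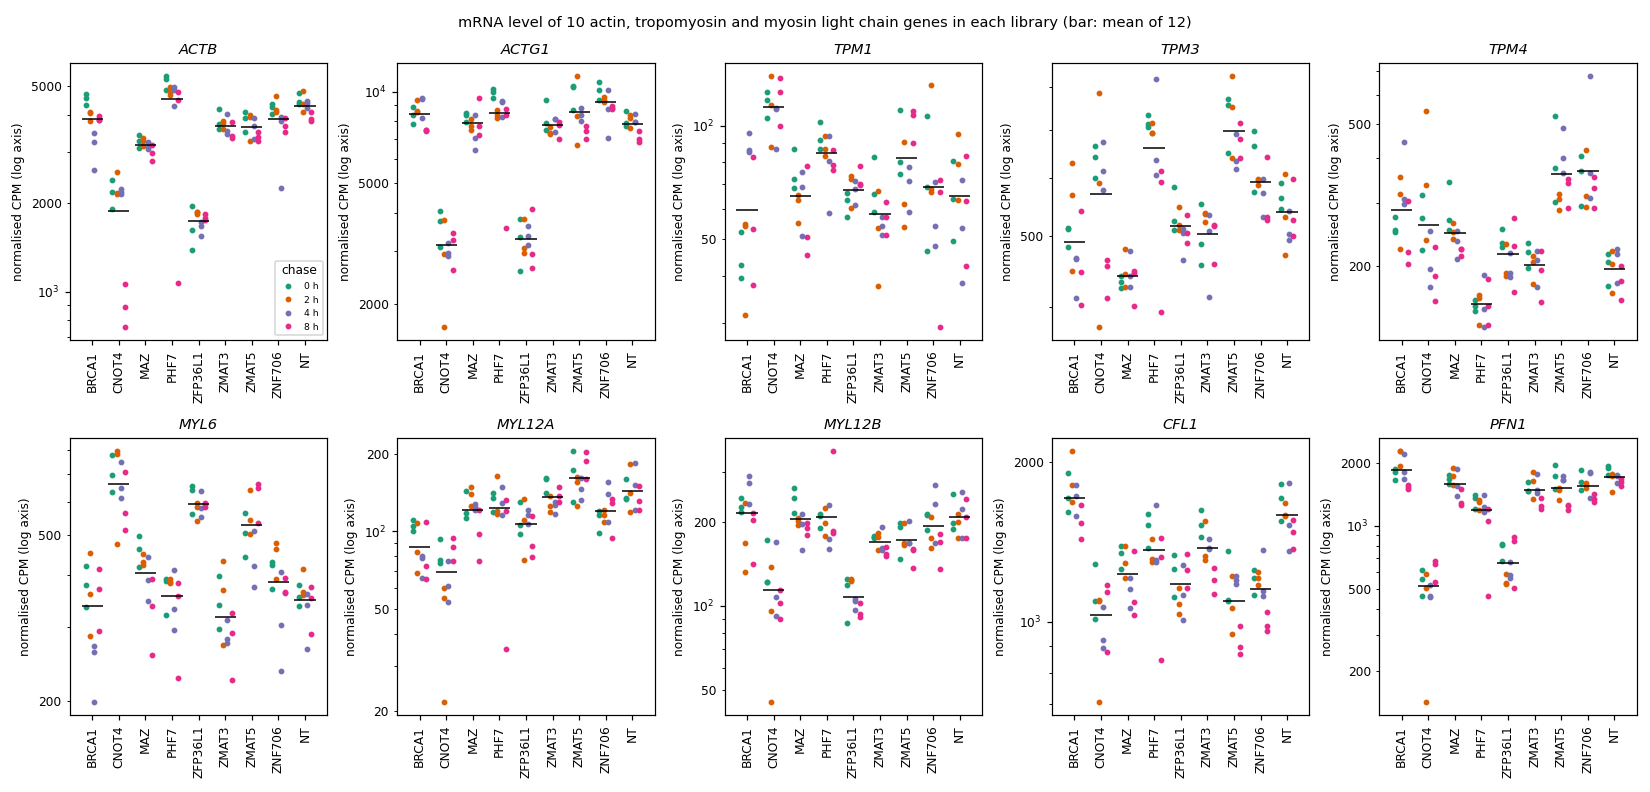
Each point is 1 library, placed by arm along the horizontal axis and by normalised CPM (reads scaled to library size by TMM, log axis) along the vertical, coloured by chase time, with a bar at the mean of 12 libraries. The CNOT4 arm and the libraries labelled ZFP36L1 lie below the 12 NT libraries for ACTB, ACTG1 and PFN1 and above them for MYL6, and TPM4 lies above NT in the ZMAT5 and ZNF706 arms.

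Levels are given as normalised CPM, reads scaled to library size and composition (TMM), and a gene is called changed at an adjusted p under 0.05 and a fold change over 1.2 in edgeR's quasi-likelihood test, with chase time as a factor and Benjamini-Hochberg adjustment over all genes tested. At 8 h against 0 h in NT, edgeR's quasi-likelihood test called 0 of 10 (0% of all genes tested), with 2 of 10, and 615 of all genes, at an unadjusted p under 0.05. The log2 differences (8 h over 0 h) ran between -0.20 (ACTB, CFL1 and PFN1) and -0.03 (MYL12B). In bulk libraries such as these, fewer cells of a kind and less mRNA in each cell cannot be told apart.

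ACTB and ACTG1, which encode nearly identical actins, both fell in the CNOT4 arm and in the libraries labelled ZFP36L1. ACTB had a lowest value of 757, a median of 2157 and a highest of 2562 normalised CPM in the CNOT4 libraries, against 3805, 4351 and 4821 in NT. The libraries labelled ZFP36L1 gave 1383, 1765 and 1965 for ACTB. Both sets lay wholly below NT, by 1.28 and 1.32 on the log2 scale (-1.28, SE 0.11, adjusted p = 1.3e-10 and -1.32, SE 0.06, adjusted p = 8.3e-20, edgeR's quasi-likelihood test). ACTG1 stood at a lowest of 1682, a median of 3128 and a highest of 4045 normalised CPM in CNOT4 libraries, against 6845, 7918 and 8613 in NT, and the libraries labelled ZFP36L1 had 2575, 3235 and 4108. Its log2 differences were -1.34 (SE 0.08, adjusted p = 1.5e-13) and -1.27 (SE 0.07, adjusted p = 2.6e-17) by the same test.

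In these same 2 arms 30.3% and 32.4% of ACTB reads mapped to several places, against 0.770% in NT, and the share for TPM3 was 55.7% and 57.9% against 29.4%. Without such reads the ACTB differences were larger, at -1.70 and -1.87. TPM3 did not pass the test on all reads (0.06 and -0.07). On reads with a single place it was lower by 0.53 in the CNOT4 arm (adjusted p = 6.1e-04) and by 0.81 in the libraries labelled ZFP36L1 (adjusted p = 2.0e-10, both by edgeR's quasi-likelihood test). That count leaves out more ACTB and TPM3 reads in these arms than in NT, so differences on it follow the mapping in part and do not by themselves show a lower level. For ACTG1 the share was 2.15% and 2.68% against 0.268%, and its differences moved little, to -1.33 and -1.27. The part of read mapping in the remaining differences was not tested.

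In the MAZ arm ACTB fell, with a lowest, median and highest of 2785, 3136 and 3424 normalised CPM, all below the NT range given above (log2 -0.45, SE 0.04, adjusted p = 2.3e-10, edgeR's quasi-likelihood test). ACTG1 in the same libraries ran between 6422 and 9531 around a median of 7829, which overlapped NT, and its log2 difference was 0.01. ACTB in ZMAT3 and ZMAT5 libraries differed from NT by -0.22 and -0.23, with small adjusted p (1.7e-04 and 1.5e-04, same test) but a fold change short of the threshold. In the ZNF706 arm ACTG1 differed by 0.24 (SE 0.05, adjusted p = 4.8e-04) and likewise fell short of it.

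**Figure D2:**
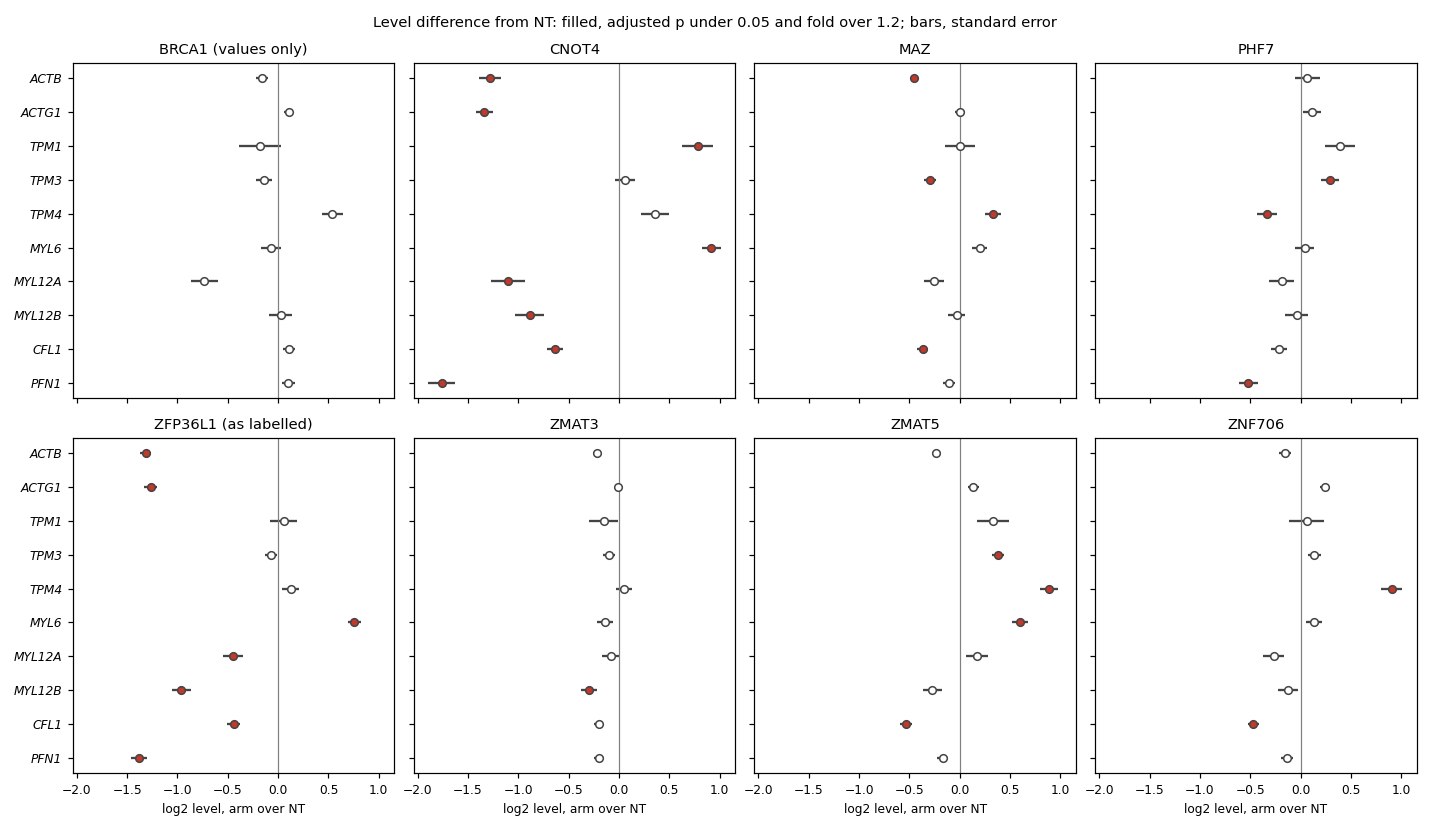
Each panel gives, for 1 arm, the log2 level over NT along the horizontal axis for the 10 genes listed down the vertical axis, with standard error bars and filled points where the gene was called. Most filled points lie in the CNOT4 and ZFP36L1 panels, TPM4 lies at 0.89 and 0.91 in the ZMAT5 and ZNF706 panels, and the BRCA1 panel shows values only.

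The ratio of 2 mRNAs within a library needs no scaling factor. A set of 4 such ratios were compared with NT, and p-values of a two-sided permutation test within chase time (100000 draws) were adjusted over 32 comparisons, BRCA1 included. The BRCA1 ratios with MYL12A or TPM4 rest on values that chose the list in part. The adjusted p of the other arms depends in part on them, and the ratios with these genes share the NT libraries of that choice. The log2 ratio of ACTB over ACTG1 averaged -1.32 ± 0.17 in MAZ, -1.23 ± 0.17 in ZMAT5 and -1.27 ± 0.17 in ZNF706 libraries, against -0.86 ± 0.10 in NT (SD, n = 12 each), and in these 3 arms every library lay below every NT library. The differences were -0.45, -0.36 and -0.40, each with an adjusted permutation p of 3.2e-04. ZMAT3 libraries (-0.22, adjusted permutation p = 8.8e-04) also had a lower ratio on average but overlapped NT. BRCA1 libraries averaged -1.13 ± 0.29 and overlapped NT. PHF7 libraries differed by -0.09 (adjusted permutation p = 0.35). In the CNOT4 arm and the libraries labelled ZFP36L1 the ratio depended on the reads counted, with differences of 0.07 and -0.04 over all reads and -0.35 and -0.58 over reads with a single place (adjusted permutation p = 0.022 and 2.7e-04). Single CNOT4 libraries ran over all reads between -1.88 and 0.36. At 0, 2 and 4 h alone, over all reads, the CNOT4 ratio was higher than in NT by 0.40 (adjusted permutation p = 0.014, a setting added after the data had been seen).

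**Figure D3:**
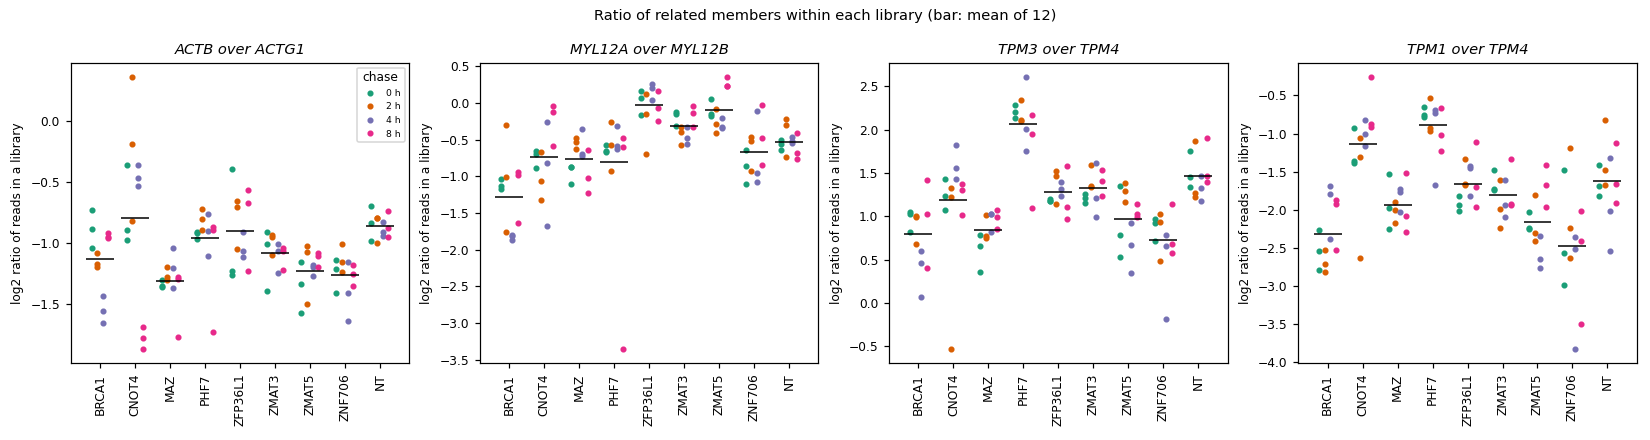
Each point is the log2 ratio of reads of 2 genes within 1 library, by arm and chase time, with a bar at the mean of 12. ACTB over ACTG1 lies between -1.004 and -0.70 in NT and below that range in the MAZ, ZMAT5 and ZNF706 libraries, and over all reads TPM3 over TPM4 lies below NT in MAZ and ZNF706.

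Among the 70 pairs of gene and arm tested, ACTB in the CNOT4 arm was the one pair whose difference from NT passed the test for a change with chase time. ACTB in the CNOT4 arm measured 2404, 2181 and 1911 normalised CPM at 0 h, 2150, 2562 and 2165 at 2 h, 2241, 2192 and 2143 at 4 h, and 1063, 889.7 and 757 at 8 h. The NT libraries had 4437, 4349.5 and 4737 at 0 h, 4821, 4353 and 4074 at 2 h, 4384, 4468 and 4224 at 4 h, and 4095, 3857 and 3805 at 8 h. The 8 h libraries of CNOT4 stood apart from its earlier ones, with a log2 difference from NT of -2.12 (SE 0.13) at 8 h and of -1.07, -0.92 and -0.99 at 0, 2 and 4 h. The arm by chase time term had an adjusted p of 2.5e-05 in edgeR's quasi-likelihood test, where 0.571% of all genes were called in this arm.

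The share of ACTB reads mapped to several places moved with it. It was 27.0% to 44.1% in the CNOT4 libraries of 0, 2 and 4 h and 2.48% to 5.42% in those of 8 h, against 0.318% to 1.27% in NT. Counting reads with a single place, ACTB in the CNOT4 arm averaged 1448 ± 171, 1598 ± 102, 1374 ± 116 and 868 ± 152 normalised CPM at 0, 2, 4 and 8 h (SD, n = 3 each), so the 8 h libraries were lower on this count too. The file headers of the 8 h CNOT4 libraries also carry another sample type than those of the other CNOT4 libraries, and the part of read mapping or processing in the difference was not tested. In BRCA1, described here by values only, the term called 0.0157% of all genes. For the other arms tested the term called 0% of all genes in MAZ, PHF7, ZFP36L1, ZMAT3, ZMAT5 and ZNF706, where 678 to 1161 genes had an unadjusted p under 0.05. Of the 70 pairs, 3 had an unadjusted p under 0.05.

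**Figure D4:**
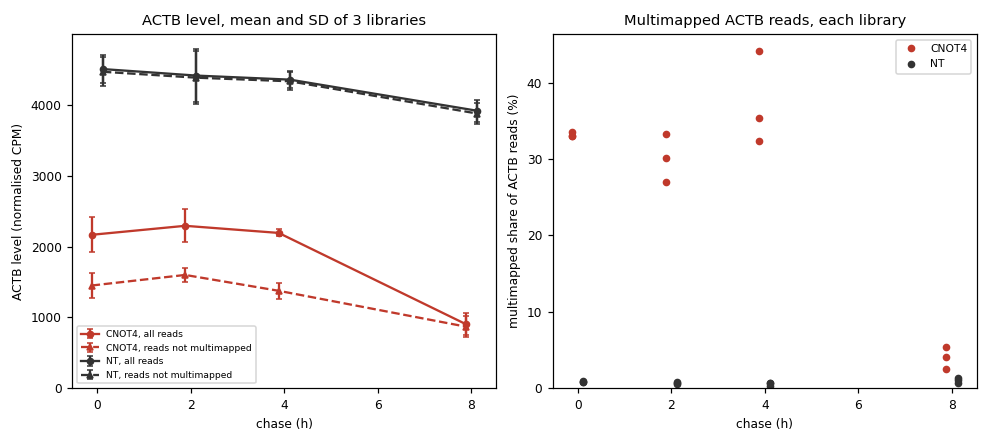
The left panel gives the ACTB level (normalised CPM, mean and SD of 3 libraries) over the chase in the CNOT4 and NT arms, with all reads and with reads of a single place, and the right panel the share of ACTB reads mapped to several places in each library. The CNOT4 level is lower at 8 h than before on both counts, and the share lies between 2.48% and 5.42% at 8 h against at least 27.0% before.

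PFN1, which brings ATP-actin to the growing end, fell in the CNOT4 arm and the libraries labelled ZFP36L1. It had a lowest, median and highest of 142, 529 and 678 normalised CPM in CNOT4 libraries and 502, 626 and 889 in libraries labelled ZFP36L1, against 1460.3, 1738 and 1931 in NT. Neither range touched NT, and the log2 differences of -1.76 (SE 0.13, adjusted p = 7.3e-12) and -1.38 (SE 0.08, adjusted p = 1.2e-16, both edgeR's quasi-likelihood test) were, over all reads, the largest falls of the 10 genes in both arms. Over reads with a single place, ACTB (-1.87) fell further than PFN1 (-1.36) in the libraries labelled ZFP36L1, while in CNOT4 PFN1 stood at -1.73 and ACTB at -1.70. The value of 142 is that of the CNOT4 2 h replicate 3 library, which also gave the lowest CNOT4 values of ACTG1, CFL1, MYL6, MYL12A and MYL12B. That library had 1781724 reads and 6495 genes detected, against at least 11185 genes in the other CNOT4 libraries. Without it, all 8 level calls in the CNOT4 arm were kept. PFN1 also fell in PHF7 libraries, at 463, 1221 and 1409 (log2 -0.52, SE 0.10, adjusted p = 4.0e-04). The 463 belongs to the shallow library, where PFN1 had 53 reads, and without it PHF7 lay below NT by -0.45 (adjusted p = 2.3e-08, edgeR's quasi-likelihood test). The call did not pass without replicate 2 of each group (log2 -0.50, adjusted p = 0.072).

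CFL1, which severs old filament, was called in 5 of the 7 arms tested, lower each time, and no other of the 10 genes was called in as many. It measured 871, 1097 and 1359 normalised CPM (lowest, median, highest) in ZMAT5 libraries, 959, 1160.2 and 1364 in ZNF706, 1029.9, 1234 and 1392 in MAZ, 704, 1079.6 and 1286 in CNOT4 and 1008, 1157 and 1345 in those labelled ZFP36L1, against 1361, 1571 and 1826 in NT. ZMAT5, CNOT4 and ZFP36L1-labelled libraries did not overlap NT, whereas ZNF706 and MAZ libraries did so by their highest values. The log2 differences ran between -0.64 (CNOT4, adjusted p = 2.4e-07) and -0.37 (MAZ, adjusted p = 1.1e-05), with -0.54 in ZMAT5, -0.47 in ZNF706 and -0.44 in ZFP36L1-labelled libraries, all by edgeR's quasi-likelihood test against the same 12 NT libraries. Between 5.15% (ZNF706) and 40% (libraries labelled ZFP36L1) of all genes tested were called in these arms. The share of all genes called in as many arms was not counted. Against the libraries of the other 7 knockdowns the CFL1 call was kept in CNOT4 alone.

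TPM4, the short tropomyosin of stress fibres and podosomes, was the gene that rose most outside the CNOT4 and ZFP36L1 arms. It measured 286, 345 and 524 normalised CPM in ZMAT5 libraries and 289.8, 342 and 681 in ZNF706, against 160.4, 201 and 223 in NT. Every library of both arms lay above all 12 of NT, and the log2 differences were 0.89 (SE 0.09, adjusted p = 1.9e-09) and 0.91 (SE 0.10, adjusted p = 1.1e-07, edgeR's quasi-likelihood test). The TPM4 tests use the NT libraries that entered the choice of this gene, so they are not independent of it. TPM4 rose less in MAZ libraries (209, 244 and 343, log2 0.33, SE 0.08, adjusted p = 0.0048) and fell in PHF7 libraries (134, 154 and 189, log2 -0.34, SE 0.10, adjusted p = 0.030), and both sets overlapped NT. The MAZ call did not pass without replicate 3 of each group (log2 0.29, adjusted p = 0.12), and against the libraries of the other 7 knockdowns its sign turned (log2 -0.09, adjusted p = 0.81). The PHF7 call did not pass without replicate 1 (log2 -0.30, adjusted p = 0.38) or replicate 2 (log2 -0.25, adjusted p = 0.52) of each group, or with no filter on low counts (log2 -0.33, adjusted p = 0.098).

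TPM3, another tropomyosin of the short cytoplasmic kind, rose in ZMAT5 libraries, where it measured 618, 685 and 829.8 normalised CPM against 471, 537 and 609 in NT, with no overlap (log2 0.38, SE 0.06, adjusted p = 2.7e-05, edgeR's quasi-likelihood test). It rose in PHF7 libraries (393, 693 and 822, log2 0.29, adjusted p = 0.027) and fell in MAZ (401, 441 and 481, log2 -0.29, adjusted p = 6.9e-04), both overlapping NT. The lowest PHF7 value was that of the shallow library, and without it the difference was 0.34 (adjusted p = 1.0e-04). The PHF7 call was lost without replicate 1 (log2 0.26, adjusted p = 0.34) or replicate 2 (log2 0.26, adjusted p = 0.37) of each group, and with no filter on low counts (log2 0.29, adjusted p = 0.063). The MAZ difference fell short of the fold threshold without replicate 1 of each group (log2 -0.26, adjusted p = 0.039).

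The log2 ratio of TPM3 over TPM4 averaged 0.73 ± 0.35 in ZNF706 and 0.85 ± 0.20 in MAZ libraries, neither overlapping NT over all reads, and 0.97 ± 0.33 in ZMAT5, against 1.47 ± 0.24 in NT (SD, n = 12 each), and the differences were -0.75, -0.63 and -0.50 (adjusted permutation p = 3.2e-04, 3.2e-04 and 8.6e-04). In PHF7 libraries it moved the other way, to 2.07 ± 0.37 (difference 0.59, adjusted permutation p = 0.0017), and it lost the call without replicate 2 of each group (adjusted permutation p = 0.060). These 4 comparisons share the NT libraries. Over reads with a single place, the ZNF706 (-0.67, adjusted permutation p = 4.8e-04) and MAZ (-0.65, adjusted permutation p = 2.7e-04) libraries overlapped NT. On that count the CNOT4 arm (-0.73, adjusted permutation p = 5.1e-04) and the libraries labelled ZFP36L1 (-0.76, adjusted permutation p = 2.7e-04) passed the test too, which they did not over all reads (-0.28 and -0.19, adjusted permutation p = 0.16 and 0.077). It leaves out 55.7% and 57.9% of TPM3 reads in these 2 arms, against 29.4% in NT. For TPM4 it leaves out 11.3% and 12.6%, against 0.774% in NT, so these 2 differences follow the mapping in part. The BRCA1 libraries had 0.80 ± 0.37.

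TPM1, a tropomyosin made in long and short forms through alternative promoters, exons and 3′ ends, was the lowest of the 10 in reads and varied most between NT libraries, between 38.3 and 94.998 normalised CPM around a median of 63.7. It was called in the CNOT4 arm alone, at 86.7, 112 and 135 (lowest, median, highest), a range whose low end overlapped NT (log2 0.78, SE 0.16, adjusted p = 2.9e-04, edgeR's quasi-likelihood test). PHF7 libraries stood at 58.9, 86.3 and 102 (log2 0.39, adjusted p = 0.11), and without the shallow library the call was made (log2 0.39, adjusted p = 0.043). The log2 ratio of TPM1 over TPM4 was -0.89 ± 0.31 in PHF7, -2.15 ± 0.39 in ZMAT5 and -2.47 ± 0.74 in ZNF706 libraries, against -1.62 ± 0.44 in NT (SD, n = 12 each). The differences of 0.73, -0.53 and -0.85 had adjusted permutation p of 8.8e-04, 0.0037 and 0.0037, and the ZMAT5 one was lost without replicate 1 of each group (adjusted permutation p = 0.11).

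The last TPM1 interval held 57.1 ± 20.5% of the TPM1 reads per library in the CNOT4 arm and 60.7 ± 6.2% in the libraries labelled ZFP36L1, against 70.3 ± 17.6% in NT, and between 77.0% and 85.4% on average in the other 6 arms (SD, n = 12 each). None of the 7 differences tested passed the two-sided permutation test after adjustment, with the lowest adjusted permutation p at 0.11 for PHF7 (difference 15.1 percentage points). Without replicate 1 of each group, PHF7 (23.7 points, adjusted permutation p = 0.024), MAZ (18.1 points) and ZNF706 (18.3 points, adjusted permutation p = 0.038 for both) passed. Of the pooled TPM1 reads, an interval of 102 bases inside the gene (63059579 to 63059680) held 12.8% in the CNOT4 arm and 11.75% in the libraries labelled ZFP36L1, against 1.65% in NT. An interval of 25 bases (63056986 to 63057010) held 7.61% and 12.6% against 1.67%.

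MYL6, the essential light chain, rose in 3 arms, at 477, 674 and 797 normalised CPM in CNOT4 libraries, 541, 589 and 657 in libraries labelled ZFP36L1 and 376, 523 and 662 in ZMAT5, against 266, 357 and 415 in NT. The CNOT4 libraries and those labelled ZFP36L1 lay wholly above NT, and ZMAT5 overlapped it at its low end. The log2 differences were 0.92 (SE 0.09, adjusted p = 3.9e-09), 0.76 (SE 0.07, adjusted p = 2.2e-11) and 0.60 (SE 0.08, adjusted p = 6.5e-07, edgeR's quasi-likelihood test). MYL6B, a related essential light chain from a neighbouring gene, differed by 1.67 and 2.11 on the log2 scale in the CNOT4 arm and the libraries labelled ZFP36L1. One MYL6 interval shares 25 bases with SMARCC2 on the opposite strand, and it held 0.476% of the NT reads of MYL6.

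Both regulatory chains fell in the CNOT4 arm and the libraries labelled ZFP36L1. MYL12A measured 21.6, 75.9 and 94.0 normalised CPM in CNOT4 libraries, wholly below NT, and 77.4, 109 and 134 in those labelled ZFP36L1, which overlapped it, against 119, 138 and 185 in NT. MYL12B measured 45.2, 111 and 172 in CNOT4 libraries and 86.7, 105 and 125 in those labelled ZFP36L1, against 174, 203 and 255 in NT, with neither range touching NT. The log2 differences of MYL12A were -1.10 (SE 0.17, adjusted p = 5.5e-06) and -0.45 (SE 0.10, adjusted p = 6.0e-04), and those of MYL12B -0.89 (SE 0.15, adjusted p = 2.2e-05) and -0.96 (SE 0.09, adjusted p = 1.4e-10, all edgeR's quasi-likelihood test). MYL12A in the libraries labelled ZFP36L1 did not pass without replicate 1 of each group (log2 -0.31, adjusted p = 0.056). The MYL12A tests, like those of TPM4, use the NT libraries that entered the choice of the gene.

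MYL12B alone of the 10 genes was called in the ZMAT3 arm, with 150.4, 169 and 191 normalised CPM and overlap with NT (log2 -0.30, SE 0.08, adjusted p = 0.0096). That call was lost without replicate 1 (adjusted p = 0.079) or replicate 3 (adjusted p = 0.15) of each group, at log2 -0.28 both times. The log2 ratio of MYL12A over MYL12B averaged -0.03 ± 0.26 in the libraries labelled ZFP36L1 and -0.09 ± 0.26 in ZMAT5, against -0.53 ± 0.17 in NT (SD, n = 12 each). The differences of 0.50 and 0.44 had adjusted permutation p of 8.6e-04 and 7.6e-04. MAZ (-0.23, adjusted permutation p = 0.012) and ZMAT3 (0.22, adjusted permutation p = 0.015) also passed, and both lost the call without replicate 1 of each group (adjusted permutation p = 0.28 and 0.087). ZMAT3 lost it without replicate 2 as well (adjusted permutation p = 0.10).

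In the BRCA1 arm, MYL12A measured 65.1, 81.7 and 111 normalised CPM, wholly below the NT range of 119 to 185 (log2 -0.73, SE 0.14), and TPM4 measured 202, 286 and 444.1 against 160.4, 201 and 223 in NT (log2 0.54, SE 0.11). These values chose the list in part, and no test result is given for them. The remaining 8 genes lay between -0.18 (TPM1) and 0.11 (CFL1) on the log2 scale. MYL12A over MYL12B averaged -1.29 ± 0.48 in BRCA1 libraries and -0.53 ± 0.17 in NT.

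Counted by arm, the calls among the 10 genes were 8 in CNOT4 (2 up, 6 down), where 27% of all genes tested were called, and 7 in the libraries labelled ZFP36L1 (1 up, 6 down), where 40% were. There were 4 in MAZ (1 up, 3 down, 8.74% of all genes), 4 in ZMAT5 (3 up, 1 down, 9.51%), 3 in PHF7 (1 up, 2 down, 8.41%), 2 in ZNF706 (1 up, 1 down, 5.15%) and 1 in ZMAT3 (down, 10.2%). The median log2 difference of the 10 genes was -0.76 in CNOT4 and -0.44 in the libraries labelled ZFP36L1, beside 0.08 and 0.15 over all genes tested there, and between -0.14 and 0.15 in the remaining arms, beside -0.03 to 0.09. Against the libraries of the other 7 knockdowns in place of NT, ACTB (log2 -0.07) and CFL1 (-0.04) in MAZ, PFN1 in PHF7 (-0.14), CFL1 (-0.13) and MYL12A (-0.15) in the libraries labelled ZFP36L1, MYL12B in ZMAT3 (-0.03), MYL6 (0.29) and CFL1 (-0.24) in ZMAT5 and CFL1 in ZNF706 (-0.16) were no longer called. With the 3 libraries per arm of 0 h alone, 11 of the 29 calls were lost with their direction kept, namely TPM3 (log2 -0.39), TPM4 (0.53) and CFL1 (-0.35) in MAZ, TPM3 (0.34) and TPM4 (-0.36) in PHF7, MYL6 (0.50) and TPM3 (0.36) in ZMAT5, MYL12B (-0.62) and TPM1 (0.82) in CNOT4, MYL12A (-0.37) in the libraries labelled ZFP36L1 and MYL12B (-0.27) in ZMAT3.

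Set against each other at 0, 2 and 4 h, the CNOT4 libraries and those labelled ZFP36L1 differed in 3 of the 10 genes (3.19% of all genes tested). ACTB was higher by 0.38, TPM1 higher by 0.75 and MYL12A lower by 0.83 on the log2 scale in CNOT4 (adjusted p = 0.0037, 0.0016 and 0.018, edgeR's quasi-likelihood test, a comparison added after the data had been seen). ACTG1 differed by -0.06 (SE 0.12) and MYL12B by 0.08 (SE 0.19).

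Ordered by mean level over the 9 arms, most neighbours did not differ by more than the larger of their SDs. ACTB stood at 4538 ± 1134 normalised CPM in PHF7 libraries, and NT, ZNF706, BRCA1, ZMAT3 and ZMAT5 followed without such a gap down to 3635 ± 311, before MAZ (3152 ± 172) and then CNOT4 (1888 ± 617) with the libraries labelled ZFP36L1 (1740 ± 161; SD, n = 12 each). ACTG1 had 1 such gap, below ZMAT3 (7775 ± 625), with the libraries labelled ZFP36L1 and CNOT4 beneath. PFN1 had 3, above PHF7, above the libraries labelled ZFP36L1 and above CNOT4. TPM3 had none between 698 ± 66.8 in ZMAT5 and 441 ± 22.0 in MAZ.

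Over the 9 arm means of log2 normalised CPM, the genes whose pattern was most like that of PFN1 were PSME3, BAX and SEC63 (Pearson r 0.99 each). For ACTG1 they were ADCY6 (1.00), TM2D3 (0.99) and PYM1 (0.99), and for ACTB NONO (0.99), MARCKSL1 (0.98) and SON (0.98), among 9235 genes. These 3 members had the widest range of arm means, and with 9 points that include 2 low arms and share their libraries such values describe likeness only.

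The wider actin and myosin pathway was read from lists of genes. Percentages beside counts are the share of all genes tested that was called in that arm in either direction. Of 25 listed targets of SRF and its MRTF coactivators, 22 were tested in the ZMAT5 arm and 8 rose with none falling (9.51% of all genes called), among them the matricellular protein CCN1 (log2 1.60), the actin-binding TAGLN2 (1.05) and the crosslinker FLNA (0.45). In the MAZ arm 5 of 22 fell and none rose (8.74%), with FLNA at -1.26, CCN1 at -0.98 and TAGLN2 at -0.27. The list gave 9 up and 3 down of 23 in CNOT4 (27%), 7 up and 6 down of 22 in the libraries labelled ZFP36L1 (40%), 2 up and 4 down of 23 in PHF7 (8.41%), 2 up and 2 down of 23 in ZMAT3 (10.2%), and 1 up and 1 down of 22 in ZNF706 (5.15%). Its median log2 difference was 0.49 in ZMAT5 and -0.13 in MAZ, beside 0.06 and 0.08 over all genes.

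The ARP2/3 complex, which starts branches on existing filaments, had 6 of 9 subunits down and 1 up in the libraries labelled ZFP36L1 (40% of all genes called) and 4 of 9 down in CNOT4 (27%), with a median log2 difference of -0.48 and -0.41 beside 0.15 and 0.08 over all genes. Its subunit ARPC3 stood at 0.50 in BRCA1, and was called higher in MAZ (0.38) and ZMAT5 (0.40) and lower, at -0.78 in CNOT4, -0.58 in PHF7 and, among the libraries labelled ZFP36L1, -0.48. ARPC2 fell in ZMAT3 (-0.34), ZMAT5 (-0.33), ZNF706 (-0.32) and the libraries labelled ZFP36L1 (-0.27), and ARPC1A in CNOT4 (-1.36) and the libraries labelled ZFP36L1 (-1.10).

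Among 15 genes that bind monomers, cap ends or sever, TMSB10, which holds actin monomers, rose in CNOT4 (0.97), ZMAT5 (0.55), MAZ (0.54), the libraries labelled ZFP36L1 (0.49) and ZNF706 (0.36). TMSB4X, its close relative and the main monomer buffer of many cells, rose in ZMAT5 (0.78), ZNF706 (0.63) and MAZ (0.52) and fell in the libraries labelled ZFP36L1 (-2.35), CNOT4 (-1.63) and ZMAT3 (-0.91). The list of 15 gave 5 up and none down in MAZ (8.74% of all genes called), 4 up and none down in ZMAT5 (9.51%), 2 up and none down in ZNF706 (5.15%), 3 up and 5 down in the libraries labelled ZFP36L1 (40%), 2 up and 4 down in CNOT4 (27%), 1 up and 2 down in ZMAT3 (10.2%) and none up and 2 down in PHF7 (8.41%). The capping subunit CAPZB was called up in CNOT4 (0.36) and the libraries labelled ZFP36L1 (0.63) and down in PHF7 (-0.40) and ZMAT3 (-0.44).

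Of 11 crosslinkers and linkers, 4 fell in ZMAT3 with none rising (10.2% of all genes called), among them talin (TLN1, -0.90) and moesin (MSN, -0.42). TLN1 also fell in the libraries labelled ZFP36L1 (-0.91), PHF7 (-0.55) and ZMAT5 (-0.48), MSN in CNOT4 (-1.40) and the libraries labelled ZFP36L1 (-1.44), and plastin 3 (PLS3) in the libraries labelled ZFP36L1 (-1.27), CNOT4 (-0.82) and ZNF706 (-0.40). Among 19 genes of myosin II and its regulators, the small GTPase RHOB fell in the libraries labelled ZFP36L1 (-1.85), CNOT4 (-1.51) and ZMAT5 (-1.11) and RAC1 rose in CNOT4 (0.91) and the libraries labelled ZFP36L1 (0.80) and fell in ZMAT5 (-0.31). Of 8 kinases and phosphatases of cofilin only the phosphatase PDXP was called, at -0.72 in ZMAT5 and -0.29 in the libraries labelled ZFP36L1. Of 14 nucleators, WASF1 fell in CNOT4 (-0.98) and the libraries labelled ZFP36L1 (-0.93), WASF2 fell in MAZ (-0.95) and rose in the libraries labelled ZFP36L1 (0.30), and WASL rose in ZMAT3 (0.88).

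The T>C label of these mRNAs was followed as conversions per covered T position. In NT at 0 h it ranged between 1.18% for MYL6 and 1.85% for MYL12B, against 1.77 ± 0.075% for all genes pooled (SD, n = 3), and 8 of the 10 genes lay below the pooled mean. MYL12A (1.79%) and MYL12B lay above it. ACTG1 carried 1.62%, 1.38%, 1.18% and 0.902% at 0, 2, 4 and 8 h in NT. ACTB carried 1.501 ± 0.028% at 0 h and 0.951 ± 0.07% at 8 h in NT (SD, n = 3 each), which left 63.3% of the label. Labelling differed between whole arms, with 3.04% pooled over genes in ZMAT3, 2.97% in MAZ, 2.31% in ZNF706, 2.29% in PHF7, 1.94% in ZFP36L1-labelled libraries, 1.70% in BRCA1, 1.46% in CNOT4 and 1.28% in ZMAT5, so labelling at 0 h was compared relative to that of all genes in the library.

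On that relative scale edgeR's quasi-likelihood test called none of the 10 genes in the 7 arms tested, and 8 of the 70 pairs of gene and arm had an unadjusted p under 0.05. The share of all genes called was 0.0124% in CNOT4, 0.0238% in PHF7, 0.0245% in the libraries labelled ZFP36L1 and 0% in MAZ, ZMAT3, ZMAT5 and ZNF706, where 372 to 763 genes had an unadjusted p under 0.05. TPM4 had relative log2 labels over NT of 0.51 in BRCA1, 0.22 in CNOT4, 0.52 in MAZ, 0.38 in PHF7, 0.17 in ZFP36L1-labelled libraries, 0.37 in ZMAT3, 0.29 in ZMAT5 and 0.37 in ZNF706, with standard errors of 0.20 to 0.28 and the same 3 NT libraries in each comparison. ACTG1, the most deeply covered, had -0.18 in PHF7 (SE 0.03, adjusted p = 0.13) and -0.13 in ZMAT3 (SE 0.03, adjusted p = 0.33).

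**Figure D5:**
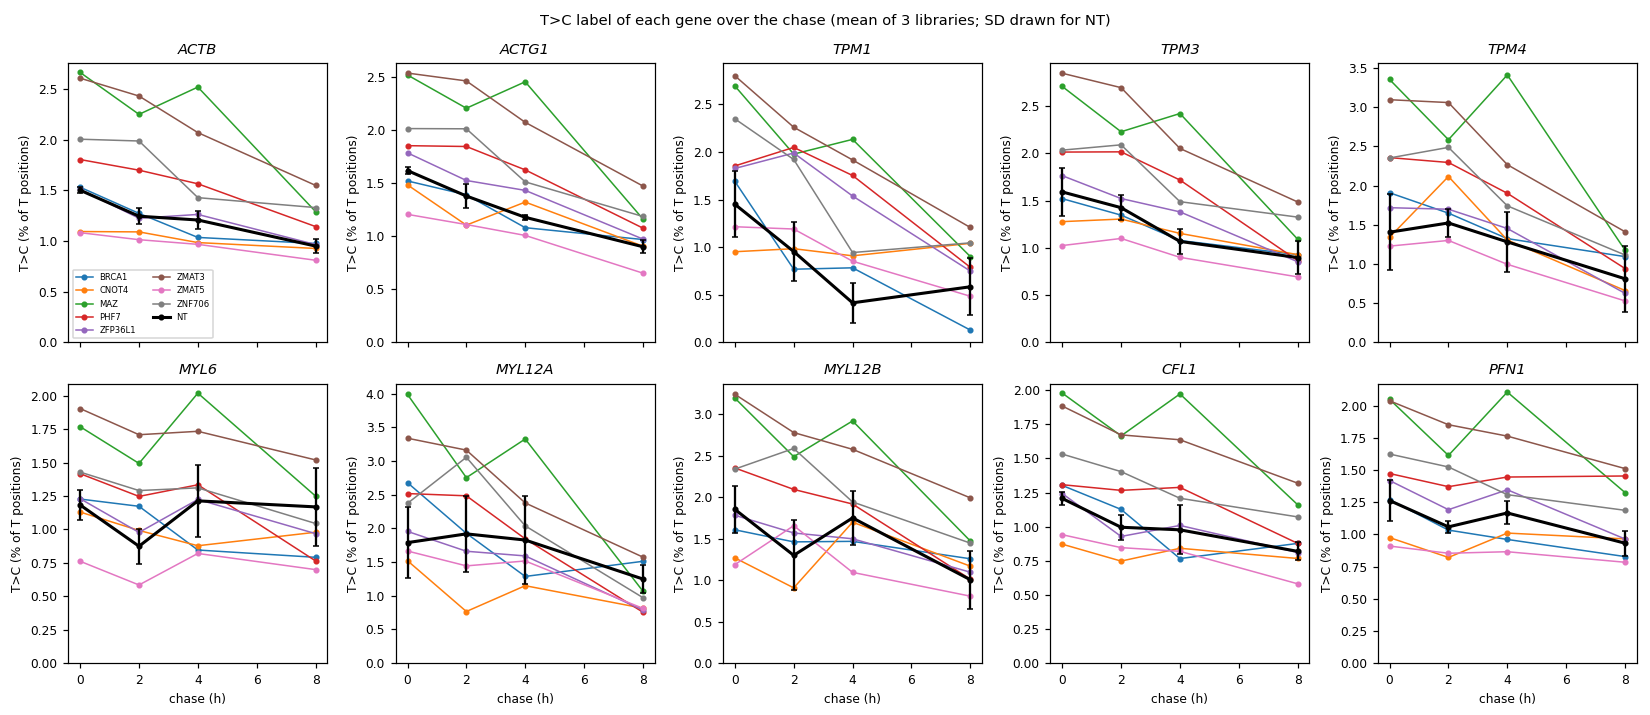
Each panel gives the T>C label of 1 gene (percent of covered T positions, mean of 3 libraries) over the chase time in hours, 1 line per arm, with NT in black and its SD as bars. ZMAT3 and MAZ begin highest and ZMAT5 or CNOT4 lowest for these genes, as for all genes pooled, and TPM1 and the light chains have wide bars in NT.

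In NT a first-order curve met R2 over 0.6 for 7 of the 10 genes, and gave half-lives of 9.18 h for ACTG1 (8.59 to 10.1 h over curves of 3 replicates), 11.7 h for ACTB (9.77 to 14.9 h), 8.93 h for TPM3, 13.03 h for CFL1, 14.7 h for TPM4, 18.8 h for PFN1 and 3.51 h for TPM1. The median over all 5544 genes with a curve in NT was 3.27 h, and the 6 genes other than TPM1 lay between its percentiles 91.3 (TPM3) and 99.1 (PFN1). TPM1 lay at 54.2, and 1 of its replicates gave a curve that met the limit. The chase ended at 8 h, so half-lives beyond that are extrapolated. MYL6 kept 98.8% of its 0 h label at 8 h in NT, MYL12A 69.8% and MYL12B 54.2%, without a curve that met the limit.

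In the knockdown arms the median half-life of the members with a curve was 10.0 h in BRCA1 (10 genes), 21.0 h in CNOT4 (3 genes), 9.18 h in MAZ (7), 11.2 h in PHF7 (9), 9.88 h in the libraries labelled ZFP36L1 (9), 11.4 h in ZMAT3 (10), 11.9 h in ZMAT5 (8) and 12.9 h in ZNF706 (9), against 11.7 h in NT (7). The numbers do not cover the same genes in each arm and were not tested. ACTG1 gave a curve in every knockdown arm, with half-lives between 9.88 h in the libraries labelled ZFP36L1 and 13.1 h in PHF7. ACTB gave 33.5 h in CNOT4, 20.4 h in ZMAT5, 14.1 h in PHF7, 12.5 h in ZNF706, 12.2 h in the libraries labelled ZFP36L1, 11.5 h in ZMAT3, 10.5 h in MAZ and 9.90 h in BRCA1. In CNOT4 the 2 ACTB replicate curves that met the limit gave 18.6 and 21.0 h. The 8 h CNOT4 libraries behind these curves differed in read mapping and file header, as described above.

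The slope of label loss was then compared with NT in the same 7 arms, in edgeR's quasi-likelihood test on conversions with T coverage as offset. Neither this test nor limma on the log2 rate called any of the 70 pairs of gene and arm. An unadjusted p under 0.05 was found for 2 of them, ACTB in CNOT4 and MYL12A in MAZ (adjusted p = 0.47 and 0.69 in edgeR's quasi-likelihood test). ACTB lost 0.0227 of its natural-log label per hour in CNOT4 and 0.0539 in NT, a difference of -0.0313 (SE 0.0118, adjusted p = 0.47). For ACTG1 the differences over all 8 arms ran between -0.0202 and 0.0202 per hour beside a loss of 0.0729 in NT. For TPM1 they ran between -0.123 and 0.186, with standard errors of 0.0643 to 0.136 beside a loss of 0.114 in NT. A TPM1 change of the size of the NT loss was thus not detectable in any arm. The same held for MYL12A (NT loss 0.0491, standard errors 0.0358 to 0.0803) and MYL12B (NT loss 0.0645, standard errors 0.0359 to 0.0723). Standard errors were also large for PFN1 (NT loss 0.0328, standard errors 0.0151 to 0.0250) and CFL1 (0.0448, 0.0155 to 0.0246). TPM4 had 0.0758 and 0.0380 to 0.0561, and MYL6 showed no loss in NT (-0.0103, standard errors 0.0246 to 0.0422). The absence of a call does not show an equal slope for these genes. Among all genes the share called was 0.0579% in CNOT4, 0.0402% in MAZ, 0.307% in PHF7, 0.0815% in ZFP36L1-labelled libraries, 0.573% in ZMAT3, 0.0684% in ZMAT5 and 0.0136% in ZNF706, while 511 to 842 genes per arm had an unadjusted p under 0.05.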

How the data were processed

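The study measured T>C conversions in 3′ end libraries of 108 HEK293T samples. Per the file headers, the deposited counts of reads, multimapped reads, covered T positions and conversions were made by the authors with SlamDunk 0.4.3 on hg38 for each of 69079 3′ UTR intervals, keeping multimapping reads. The authors also deposited a fraction, the rate of conversion at each interval's covered T positions, which was not tested, and CPM scaled to mapped reads, from which the number of mapped reads behind the CPM minimum was taken. No source used here gives the variant mask, base quality minimum or strand setting.

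Intervals were summed per gene. Libraries held between 63659 and 30750027 reads in 3′ UTRs (median 14870063), and p-values measure the spread between samples labelled as biological replicates. Levels were tested with edgeR 4.0.16 (TMM, quasi-likelihood F test, chase time as a factor, each arm with NT) in R 4.3.3, and label with the same test on conversions with T coverage as offset, for genes over 5 CPM in at least 2 replicates. Calls took an adjusted p under 0.05 and, for levels, a fold over 1.2. The limma 3.58.1 alternative for label used a pseudocount of 0.001, and DESeq2 1.42.0 was an alternative for levels. Half-lives came from first-order curves with R2 over 0.6. Ratios were tested by permutation within chase time (100000 draws) in Python 3.11.15 with SciPy 1.17.1, where 1e-05 is the smallest p possible. The test scripts were checked on simulated data. Members, lists and tests were chosen with earlier results of these data known. All 10 members are named, with up to 3 genes per list called in the most arms and the 3 genes most like each of the 3 members with the widest range. The labels do not say that replicate numbers pair samples, and same-numbered knockdown and NT libraries of the same chase time did not deviate together. Same-numbered libraries of an arm were not compared across chase times.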

Additional observations from a re-analysis of the deposited data

Results flagged for a closer look

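The ACTB difference between the CNOT4 arm and NT changed with chase time by a test of the difference itself (adjusted p = 2.45599e-05, edgeR's quasi-likelihood test). CNOT4 libraries averaged 903 normalised CPM at 8 h and between 2165 and 2292 at 0, 2 and 4 h, against 3919 at 8 h and between 4359 and 4508 before it in NT. The share of ACTB reads mapped to several places was 2.48% to 5.42% in the 8 h CNOT4 libraries and at least 27.0% in the earlier ones, and its part in the difference was not tested.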

How the results depend on the processing

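Of 280 alternatives for the called levels, 247 kept direction and call, 32 kept direction without the call and 1 turned, TPM4 in MAZ against the other 7 knockdowns (-0.0943). For ratios 57 of 62 kept the call and 5 did not. Numbers of members called moved as follows, beside all genes called at the same setting. BRCA1, described by values only, is left out. At 0 h alone there was 1 in MAZ (71 of 12038 genes tested), 0 in ZMAT3 (52 of 12031) and 2 in ZMAT5 (107 of 11771). Against the other 7 knockdowns there was 1 in MAZ (880 of 14967) and 1 in ZNF706 (1371 of 14967). With no filter on low counts PHF7 had 1 (PFN1), TPM3 and TPM4 being lost, and 1300 of 16519 genes tested were called. Leaving out each replicate in turn gave 0 to 3 in PHF7 (250 to 1204 of all genes called) and 0 to 1 in ZMAT3 (641 to 792). It gave 2 to 4 arms called for MYL12A over MYL12B, and 0 to 3 for the last TPM1 interval. Members with a half-life in CNOT4 numbered 1 from T>C reads and 3 from conversions. The cause of these changes was not tested. With the replicate number as a block all 29 called pairs of gene and arm kept their call. Numbers alone link these samples. In the shallowest library MYL12A had 4 reads and TPM1 had 9, the lowest of the 10 genes there.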
